A study of Mus musculus with 57 samples.

Results

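The stefin genes Stfa3 and Stfa2l1, and Ifitm6, a gene of the interferon-induced transmembrane family, were followed over every tissue of a mouse leukemia study. They were chosen because their signals had been seen to be high in marrow and leukemic spleen of mice carrying the NUP98-HOXD13 fusion, and the choice was to be weighed against wild-type marrow labelled C57B6. All probe sets annotated to 1 of these genes alone were taken. That gave 3 of the 34842 single-gene probe sets and 3 of the 18165 genes on the array: 1419709_at for Stfa3, 1442339_at for Stfa2l1 and 1440865_at for Ifitm6. The stefin values in NHD13 marrow, whole or lineage-negative, and in NHD13 leukemic spleen are treated as those that chose the genes and are given as a description. Weighed against C57B6 marrow, Stfa3 was higher on all NHD13 marrows, while Stfa2l1 overlapped it. The Ifitm6 values went against the label in part: in NHD13 whole marrow they lay inside the wild-type range and below all C57B6 marrows. How many of all genes lay below C57B6 in this way was not counted.

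The study profiled RNA on 57 Affymetrix arrays, in 14 groups, from thymus, spleen, whole marrow and lineage-negative marrow, from which mature blood cells have been removed. A pair of leukemia fusions was compared with wild type: vav-NUP98-HOXD13 (NHD13) and vav-CALM-AF10 (CA10), each a transgene driven by vav, a promoter active across blood cells. Transgenic mice were taken either with clinical signs of leukemia, when the spleen was collected, or while clinically healthy; the other tissues were described as age matched, with no age in the labels. The NHD13 groups were 6 leukemic spleens and, from clinically healthy mice, 3 whole marrows, 3 lineage-negative marrows and 3 thymi. The CA10 groups were 6 leukemic spleens and, from clinically healthy mice, 5 spleens, 3 whole marrows, 3 lineage-negative marrows and 4 thymi. Wild type comprised 2 spleens, 6 whole marrows, 3 lineage-negative marrows and 7 thymi, whose strain is not in the labels, and a separate group of 3 whole marrows labelled C57B6. Whether each array came from a different mouse is not in the labels, so a p-value reflects array-to-array spread alone, which may be technical. Levels below are log2 signals of 1 probe set, or the mean of such signals where a list is named, and no probe set's level is set against another's.

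Stefins are small cytosolic proteins that bind and block papain-like cysteine proteases, the cathepsins of the lysosome. In the mouse the stefin A genes form a cluster of close copies and are best known in skin and in neutrophils and other myeloid cells. Ifitm genes encode short membrane proteins, several of which restrict virus entry. Ifitm6 is a less studied member expressed in bone marrow and myeloid cells.

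Stfa3 and Stfa2l1 both lie on chromosome 16, with 18 annotated genes between them, of which 8 carry a Stfa, Csta or Cstdc name; Ifitm6 lies on chromosome 7 beside Ifitm3. The 250 bases upstream of each gene's start are shown because the stefins share most of this sequence and Ifitm6 does not. They are from RefSeq, build GRCm38.p6, written 5′ to 3′ along the gene's own strand: chr16:36455393-36455642 (minus strand) for Stfa3, chr16:36156561-36156810 (plus strand) for Stfa2l1 and chr7:141016893-141017142 (minus strand) for Ifitm6. Capitals mark, in the stefins, their longest shared run near the 5′ end and the run TTTAAAACCC near the start. Capitals also mark any match, on either strand, to an Ets and IRF composite motif (GGAA, any 2 bases, then GAAA) and, in Ifitm6, TATAAA.
Stfa3: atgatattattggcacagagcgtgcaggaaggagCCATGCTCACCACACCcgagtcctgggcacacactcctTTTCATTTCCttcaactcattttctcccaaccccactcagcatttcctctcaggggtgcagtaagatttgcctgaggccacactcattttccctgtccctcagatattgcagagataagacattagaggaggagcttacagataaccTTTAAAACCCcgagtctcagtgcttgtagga
Stfa2l1: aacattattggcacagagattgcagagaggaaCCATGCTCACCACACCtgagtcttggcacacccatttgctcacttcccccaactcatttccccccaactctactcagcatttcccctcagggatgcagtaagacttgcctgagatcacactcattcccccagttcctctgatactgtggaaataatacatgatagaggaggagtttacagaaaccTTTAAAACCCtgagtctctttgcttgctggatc
Ifitm6: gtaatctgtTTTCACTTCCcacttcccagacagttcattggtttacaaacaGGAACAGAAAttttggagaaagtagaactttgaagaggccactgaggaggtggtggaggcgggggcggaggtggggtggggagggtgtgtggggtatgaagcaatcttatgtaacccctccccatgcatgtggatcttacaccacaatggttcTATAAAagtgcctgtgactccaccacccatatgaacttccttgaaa

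The stefin stretches were identical at 204 of 254 alignment columns, or 80.31%. Against Ifitm6 the identity was 41.39% for Stfa3 and 41.76% for Stfa2l1. The shared run CCATGCTCACCACACC, 16 bases long, was found on the sense strand of 2 of the 32851 RefSeq promoter entries, those of these stefins. The run TTTAAAACCC began 31 bases before the start of Stfa3 and 33 before that of Stfa2l1. It was in 39 of all entries on either strand (0.119%), and in 7 of the 11 entries of the stefin cluster, read on the sense strand. The composite motif had 1 match in Stfa3, none in Stfa2l1 and 2 in Ifitm6, on opposite strands; 2.3% of all entries held it. TATAAA was found 46 bases before the start of Ifitm6 and in 12.4% of entries. An interferon response core (GAAA, any 2 bases, then GAAA), which can overlap the composite motif, TTGCNNAA of C/EBP factors and GAGGAAGT of PU.1 had no match in these windows on either strand; they were in 2.98%, 9.56% and 2.44% of entries. A match is a description of letters, not a binding site. Whether these sequences bear on the signals was not tested.

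The arrays fell into a pair of sets by the spread of their values. On 10 arrays the 75th percentile of signal lay between 6.90 and 7.15, and on the other 47 between 7.26 and 7.72. The 10 were the CA10 whole marrows, whole marrows 4 to 6 of the wild type, wild-type thymus 6 and, in each lineage-negative group, array 3. The difference between 3′ and 5′ Gapdh control probe sets, a sign of RNA integrity, had a median of 0.17 and was highest in NHD13 lineage-negative marrow 3, at 2.95. It was next highest on CA10 spleen 1, at 2.09, and C57B6 marrow 2, at 1.36. All 3 genes passed the filter on low signals (above the 40th percentile of the array on at least 3 arrays). Every whole marrow and NHD13 leukemic spleen was above that level for each gene. Both stefins were above it on none of the wild-type or CA10 lineage-negative marrows, and Stfa2l1 on none of the wild-type spleens or of the wild-type or NHD13 thymi, so differences among these groups are between signals at the floor and their order has no meaning.

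**Figure D1:**
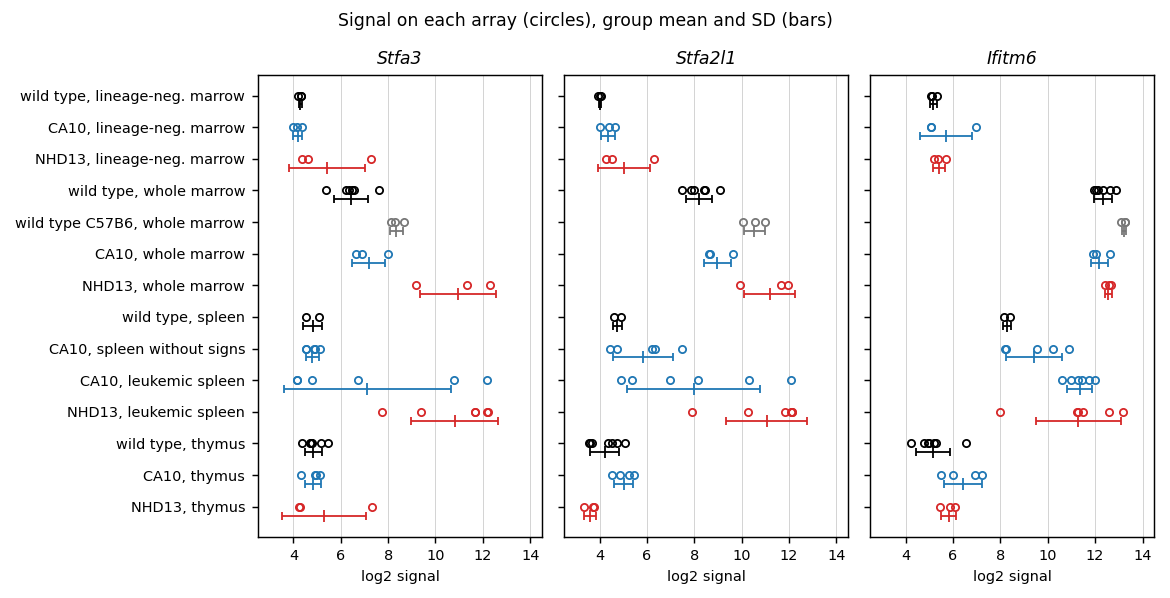
Log2 signal of Stfa3, Stfa2l1 and Ifitm6 on each of the 57 arrays (circles) in 14 groups, with the group mean and SD drawn below the circles (black wild type, grey wild-type C57B6, blue CA10, red NHD13). NHD13 whole marrow has the highest mean of both stefins, at 10.95 and 11.19, whereas C57B6 whole marrow has the highest mean of Ifitm6, at 13.20.

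In whole marrow of clinically healthy NHD13 mice, Stfa3 and Stfa2l1 stood above all wild-type marrows of unnamed strain, while Ifitm6 did not. Stfa3 was at 9.20, 12.30 and 11.34 on the 3 NHD13 marrows. It was at 6.56, 7.60, 6.35, 6.20, 5.39 and 6.49 (lowest 5.39, median 6.42, highest 7.60) on the 6 wild-type marrows and at 8.12, 8.66 and 8.27 on the 3 C57B6 marrows. All 3 NHD13 arrays were therefore above every wild-type array of either kind, with NHD13 marrow 1 the nearest to them. The NHD13 mean was 10.95 ± 1.59 (SD, n = 3), 4.52 above wild type and 2.60 above C57B6, a 6.05-fold difference from the latter. Without NHD13 marrow 1 the distance from C57B6 was 3.47, or 11.1-fold. Because the gene was chosen on these contrasts, no test is given. Of all 15310 genes tested, 4.22% had every NHD13 marrow above the 6 wild-type marrows of unnamed strain, and 3.22% above the C57B6 marrows as well.

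Stfa2l1 was at 9.95, 11.94 and 11.67 on the NHD13 marrows. The 6 wild-type marrows lay between 7.46 and 9.08 with a median of 8.19, and the C57B6 marrows were at 10.06, 10.98 and 10.58. The NHD13 arrays were above all 6 wild-type arrays, but NHD13 marrow 1 was below all C57B6 arrays and the other two above them. The NHD13 mean of 11.19 ± 1.08 (SD, n = 3) exceeded wild type by 2.98 and C57B6 by 0.64, or C57B6 by 1.26 without NHD13 marrow 1. C57B6 marrow 2, with the high Gapdh difference of 1.36, had the highest signal of its group for both stefins; the part of RNA quality was not tested. Most of the distance from wild type was thus also present in the C57B6 group, which stood 2.34 above the other wild-type marrows. The corresponding distance of C57B6 from wild type was 1.92 for Stfa3.

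Ifitm6 was at 12.41, 12.67 and 12.60 on the NHD13 marrows. Wild-type marrows ranged from 11.94 to 12.89 with a median of 12.23, and C57B6 marrows were at 13.25, 13.10 and 13.26. NHD13 marrow overlapped wild type in full and lay below C57B6 on all 3 arrays. The share of all genes with NHD13 marrow wholly below C57B6 was not counted. C57B6 marrow lay wholly above the other wild-type marrows for 14.2% of all genes, Ifitm6 among them. The NHD13 mean was 0.24 above wild type and 0.64 below C57B6, and the C57B6 mean 0.88 above wild type. Against wild-type marrows 1 to 3, which share the wider array set with the NHD13 and C57B6 marrows, the NHD13 difference was -0.05 for Ifitm6, 4.11 for Stfa3 and 2.68 for Stfa2l1. The C57B6 differences from the same 3 arrays were 0.59, 1.52 and 2.03. The strain of the NHD13 mice is not in the labels, so strain and transgene cannot be told apart in these values. In bulk tissue a lower share of the expressing cells and less RNA per cell also cannot be told apart.

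**Figure D2:**
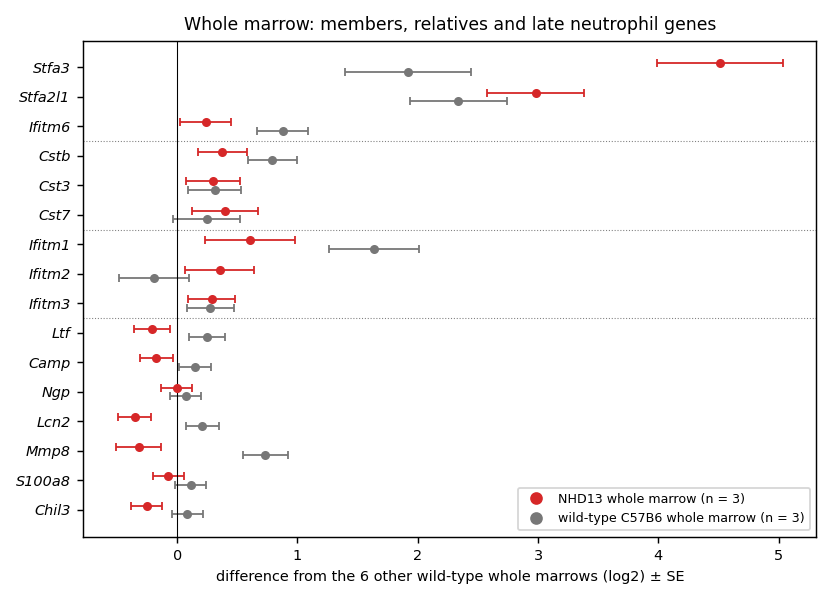
Difference of NHD13 (red) and C57B6 (grey) whole marrow from the 6 other wild-type whole marrows, in log2 with the standard error of the limma model, for the 3 genes, for related stefin, cystatin and Ifitm genes and for late neutrophil genes. Stfa3 at 4.52 and Stfa2l1 at 2.98 lie far to the right in NHD13 marrow, where the neutrophil genes lie between -0.35 and -0.01.

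Few related genes passed the test in NHD13 marrow. With limma and Benjamini-Hochberg adjustment over all genes, 1.18% of genes passed the threshold of 0.05 in this comparison, 0.607% higher and 0.575% lower. None of the 4 other stefin and cystatin genes tested (Cstb, Cst3, Cst6 and Cst7) passed, with a median difference of 0.34 against 0.02 over all genes. Of 15 genes on that list only 5 were measured, and Csta1, at 3.58 in NHD13 marrow, was not among those tested. The list thus tested no gene with a Stfa, Csta or Cstdc name. Probe sets annotated to several stefin genes are described among the results flagged for a closer look, where they were above wild type in NHD13 tissue. Cstb, the ubiquitous stefin B, differed by 0.37 ± 0.20 (SE, adjusted p = 0.332) and Cst7, a cystatin of myeloid and lymphoid cells, by 0.40 ± 0.28 (adjusted p = 0.398). None of the 6 other Ifitm genes passed either: Ifitm1 differed by 0.60 ± 0.37 and Ifitm3 by 0.29 ± 0.19. Among 10 cysteine cathepsins, the proteases that stefins block, Ctsl rose by 1.37 ± 0.26 (adjusted p = 0.0118) and none fell; the list's median was 0.33. The call of Ctsl was lost when all probe sets of a gene were averaged, with the replicate block and within the wide array set.

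Of 15 late neutrophil genes tested in NHD13 marrow, none passed, and the median difference was -0.21. Ltf and Lcn2, granule proteins that bind iron, differed by -0.21 ± 0.15 and -0.35 ± 0.14, and Mmp8, the neutrophil collagenase, by -0.32 ± 0.19. Within the wide array set, where 1.23% of all genes passed, 4 of the 15 fell, and with the array set as a block, where 2.32% passed, 4 fell too. The mean signal of the list lay between 11.78 and 11.89 on the NHD13 marrows, between 11.69 and 12.40 on the wild-type marrows and between 12.47 and 12.60 on the C57B6 marrows. None of 9 primary granule genes and none of 12 monocyte genes passed, with medians of -0.25 and 0.11. The 12 interferon response genes tested had a median of 0.49 and no call. The B cell marker list moved the other way from the stefins in NHD13 marrow, at 5.68 to 6.38 against 7.39 to 7.96 in wild type. Of its 6 genes 5 passed as lower and none as higher. In C57B6 marrow, where the stefins were also above the other wild-type marrows, the list was at 7.82 to 8.40. Its part in the stefin differences was not tested.

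In C57B6 marrow more of these lists shifted. There 19.2% of genes passed, 14% higher and 5.2% lower, so a count of calls has a high background. Cstb rose by 0.79 ± 0.20 (adjusted p = 0.0135) and Ifitm1 by 1.64 ± 0.37 (adjusted p = 0.00671). Of the late neutrophil genes 6 rose and 1 fell, with a median of 0.25, and of the 12 monocyte genes 7 rose and 1 fell, with a median of 1.19. Elane, the neutrophil elastase of primary granules, fell by 2.46 ± 0.21 on the log2 scale (adjusted p = 6.4e-07). Of the interferon response genes 6 rose and none fell, with a median of 0.88. The NHD13 and C57B6 differences share the 6 wild-type marrows.

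Leukemic NHD13 spleens had high stefin signals too, with 1 array well below the rest. Stfa3 was at 12.21, 11.68, 7.74, 11.67, 12.18 and 9.37 on leukemic spleens 1 to 6 (lowest 7.74, median 11.68, highest 12.21), and at 4.54 and 5.08 on the wild-type spleens. Every leukemic array was above both wild-type arrays, with array 3 the lowest and array 6 the next. The mean of 10.81 ± 1.84 (SD, n = 6) was 6.00 above wild type, or 6.61 without array 3. Every-array separation of this kind was found in 22.4% of all genes, and nothing is read from it here since the gene was chosen on this contrast.

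Stfa2l1 was at 12.13, 11.85, 7.90, 12.09, 12.12 and 10.27 on the same leukemic arrays, and at 4.89 and 4.62 in wild-type spleen. The order of the arrays was alike, with array 3 lowest and array 6 next, and no overlap with wild type. The mean difference was 6.31, or 6.94 without array 3. Compared with C57B6 whole marrow, 5 of 6 leukemic arrays were above all marrows for Stfa3 and 4 of 6 for Stfa2l1, with mean differences of 2.46 and 0.52.

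Ifitm6 was at 12.59, 11.29, 7.96, 11.47, 11.25 and 13.18 on the leukemic NHD13 spleens, against 8.15 and 8.39 in wild-type spleen. Array 3 was below both wild-type arrays and the other 5 were above them, so the groups overlapped through 1 array. The mean of 11.29 ± 1.81 (SD, n = 6) was 3.02 above wild type, and 3.68 above without array 3. No leukemic array was above all C57B6 marrows, and the mean difference from them was -1.91. Array 6, low among the leukemias for the stefins, was the highest for Ifitm6.

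Array 3 was also the lowest for myeloid lists in general. The mean signal of the late neutrophil list on leukemic spleens 1 to 6 was 11.60, 10.72, 7.28, 10.42, 10.90 and 12.07, against 8.29 and 8.37 in wild-type spleen. On array 3 the primary granule list was at 7.49 and the monocyte list at 7.46, both the lowest of the group. The B cell marker list was at 5.09 to 6.43 in NHD13 leukemic spleen against 10.98 and 11.26 in wild type, and its part in the members' differences was not tested.

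The signals of the members and of the neutrophil list can be set side by side on the same arrays. Leukemic NHD13 spleens 1, 2, 4 and 5 had list means of 10.42 to 11.60, below all 6 wild-type whole marrows at 11.69 to 12.40. Their Stfa3 signals were 11.67 to 12.21, against 5.39 to 7.60 on those marrows. Leukemic spleen 3 was the lowest of its group for both the list and Stfa3, and spleen 6 the highest for the list and next to lowest for Stfa3. Ifitm6 on the same leukemic arrays, at 11.25 to 12.59, was below or among the wild-type marrows at 11.94 to 12.89. The Stfa3 values of NHD13 leukemia are among those that chose the gene, and the part of neutrophil content in them was not tested.

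**Figure D3:**
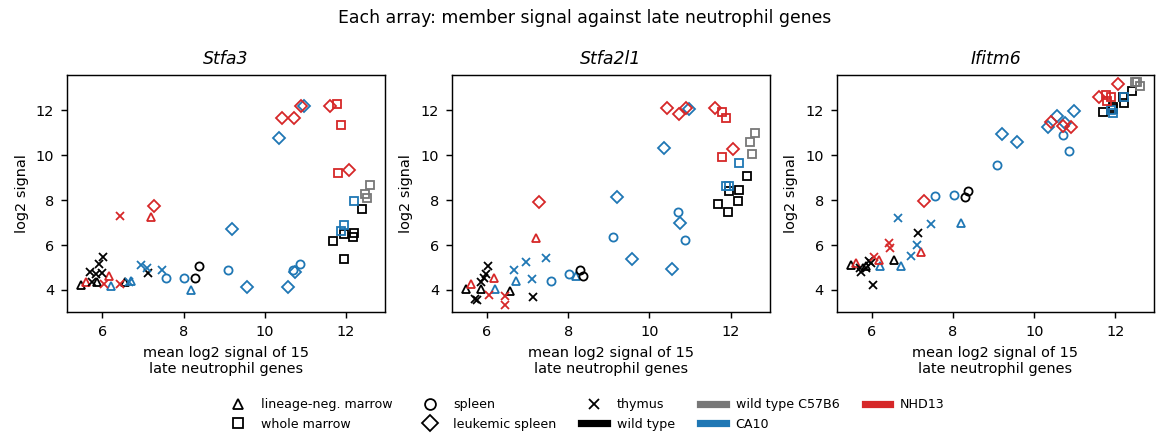
Log2 signal of each gene (vertical) against the mean log2 signal of 15 late neutrophil genes (horizontal) on each of the 57 arrays; shapes mark the tissue and colours the genotype. For Stfa3 the 3 NHD13 whole marrows and 5 of the 6 NHD13 leukemic spleens stand above all wild-type whole marrows, C57B6 included, and leukemic spleen 3, at 7.74, stands below the C57B6 marrows. Ifitm6 is high on arrays with a high list mean.

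Other genes of the lists rose or fell in leukemic NHD13 spleen against a high background: 31.4% of genes passed, 19.1% higher and 12.3% lower. Cst7 rose by 3.10 ± 0.60 (adjusted p = 0.00114) and was the only one of the 4 other stefin and cystatin genes to pass; the list's median was 0.16 against 0.04 over all genes. Of the 10 cysteine cathepsins 4 fell and none rose, with a median of -0.55. Ctsb fell by 1.15 ± 0.29 on the log2 scale (adjusted p = 0.00595) and Ctso by 1.82 ± 0.39 (adjusted p = 0.00207), and Ctss and Ctsw fell as well. Cathepsin G is a serine protease of primary granules and not a stefin target of this class; its gene Ctsg rose by 5.08 ± 1.30 (adjusted p = 0.00703).

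Of the 6 other Ifitm genes 1 passed in that comparison, Ifitm5, known from bone, which rose by 0.53 ± 0.15 (adjusted p = 0.0143) from a low level of 5.53. Ifitm1 and Ifitm3, the interferon-inducible relatives, differed by 0.79 ± 0.70 and -0.05 ± 0.51 and did not pass. Late neutrophil genes had a median of 2.21, with 4 of 15 higher, among them Mmp8 by 4.26 ± 1.12 (adjusted p = 0.00799). Ltf differed by 2.21 ± 1.40 (adjusted p = 0.239). Primary granule genes had a median of 2.77 with 4 of 9 higher, and monocyte genes a median of 0.99 with 3 of 12 higher. Cebpb, a transcription factor of myeloid cells, rose by 2.46 ± 0.63 (adjusted p = 0.00706), 1 of 4 calls among 7 granulocyte factors. No interferon response gene of 12 passed, and their median was 0.21. With only the groups compared in the model, where 24.5% of genes passed, 2 cathepsins fell and Ifitm5 was not called.

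NHD13 lineage-negative marrow held little stefin signal except on 1 array. Stfa3 was at 7.27, 4.35 and 4.61 there, against 4.33, 4.22 and 4.34 in wild type. Stfa2l1 was at 6.31, 4.29 and 4.53, against 3.95, 4.05 and 4.04. For both genes array 1 was high and the other arrays were slightly above the wild-type arrays, without overlap, as for 2.3% of all genes. This comparison counts among those on which the genes were chosen, so no member test is given. The mean differences of 1.11 and 1.03 became 0.18 and 0.40 without array 1, between signals at the floor. Array 3 had the Gapdh difference of 2.95, and the part of RNA quality was not tested. Array 1 also had the highest late neutrophil mean of its group, above the 5.60 and 6.17 of the other two; its part in the stefin signal was not tested. Ifitm6, at 5.69, 5.21 and 5.35 against 5.33, 5.10 and 5.07, overlapped wild type. Only 9 genes (0.0588%) passed in this comparison, whose model did not pair arrays, and none with the replicate number as a block. Of these, 3 were primary granule genes, all lower, and Ctsg fell by 4.13 on the log2 scale (adjusted p = 0.0218); none of the 15 late neutrophil genes passed.

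Compared with NHD13 whole marrow, NHD13 lineage-negative marrow was lower by 5.54 for Stfa3, 6.15 for Stfa2l1 and 7.14 for Ifitm6, without overlap, as for 16.8% of all genes. The genes were chosen for high NHD13 whole marrow signal, so nothing is read from this direction. Each stefin was above the 40th percentile on 1 of the 3 lineage-negative arrays, so the sizes are largely against signals at the floor.

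In NHD13 thymus, which the choice of genes did not use, no member passed. Stfa3 was at 7.32, 4.25 and 4.27, and the 7 wild-type thymi lay between 4.35 and 5.47 with a median of 4.74. Thymus 1 was thus above, and the other two below, every wild-type thymus, and the difference of 0.43 had an adjusted p of 0.818. Stfa2l1 on the same arrays was at 3.33, 3.74 and 3.76, with no rise on thymus 1. Its wild-type arrays ranged from 3.58 to 5.08, and the difference was -0.61 (adjusted p = 0.526). Ifitm6 was at 5.86, 6.10 and 5.47 against 4.22 to 6.56, a difference of 0.67 (adjusted p = 0.629). In all, 0.764% of genes passed in NHD13 thymus, 0.398% higher and 0.366% lower.

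The CA10 fusion gives comparisons that the choice of genes did not use. The wild-type spleens and marrows in them, though, were also the reference in the comparisons that chose the genes. The CA10 leukemic spleens split into high and low arrays for the stefins. Stfa3 was at 4.80, 4.14, 6.73, 4.14, 12.19 and 10.77 on CA10 leukemic spleens 1 to 6 (lowest 4.14, median 5.76, highest 12.19). Stfa2l1 was at 6.97, 4.91, 8.14, 5.38, 12.08 and 10.32. Arrays 5 and 6 were high for both genes, at levels of the NHD13 leukemias, array 3 was intermediate, and arrays 1, 2 and 4 were the lowest. The difference from wild-type spleen was 2.32 ± 1.73 (SE) for Stfa3 and 3.22 ± 1.51 for Stfa2l1. Neither passed in limma with Benjamini-Hochberg adjustment (adjusted p = 0.448 and 0.199). Without array 5 the differences were 1.31 and 2.39.

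The late neutrophil list mean on CA10 leukemic spleens 1 to 6 was 10.74, 10.56, 9.21, 9.57, 10.98 and 10.35. It was highest on array 5 and lowest on array 3, and its part in the stefin signals was not tested. Ifitm6 was even across the group, at 11.46, 11.76, 10.97, 10.59, 11.97 and 11.28. All 6 arrays were above both wild-type spleens, as for 20.2% of genes. The difference of 3.07 ± 0.94 (SE, adjusted p = 0.0522) missed the threshold. It passed when the model held only the groups compared (adjusted p = 0.00371), which leaves out the NHD13 leukemias and healthy CA10 spleens, and with the replicate block (adjusted p = 0.0203), which in effect uses 2 pairs.

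In this comparison 8.05% of genes passed, 5.63% higher and 2.42% lower. That count rests on the 2 wild-type spleens: 1 gene passed without wild-type spleen 1 and none without wild-type spleen 2. Cst3, the secreted cystatin C, rose by 1.15 ± 0.32 (adjusted p = 0.0347), the only call among 4 stefin and cystatin genes, whose median was 0.77 against 0.03 over all genes. Ifitm2 rose by 1.62 ± 0.36 (adjusted p = 0.0152), the only call among the 6 other Ifitm genes. No cathepsin of 10 and no late neutrophil gene of 15 passed, with medians of -0.04 and 1.88. With only the groups compared in the model, where 14.3% of all genes passed, 10 late neutrophil genes rose. Monocyte genes had 4 of 12 higher and a median of 1.64, with F13a1, a clotting factor subunit made by monocytes, up by 4.34 ± 1.09 (adjusted p = 0.0241).

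NHD13 and CA10 leukemias, both set against the same wild-type spleens, differed in mean by 3.68 for Stfa3, 3.09 for Stfa2l1 and -0.05 for Ifitm6. The groups overlapped for every member. The lowest NHD13 array lay above 4 of the 6 CA10 arrays for Stfa3. These values are a description, since the genes were chosen on the NHD13 signal.

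Spleens of clinically healthy CA10 mice had no called member and an uneven Ifitm6 signal. Ifitm6 was at 10.91, 9.56, 10.20, 8.24 and 8.20 on 5 arrays, of which arrays 4 and 5 overlapped wild-type spleen and the first 3 lay above it. Stfa2l1 was at 7.49, 6.35, 6.21, 4.72 and 4.42, again lowest on arrays 4 and 5, while Stfa3 stayed between 4.52 and 5.14. The late neutrophil mean was 10.70, 9.09, 10.87, 8.02 and 7.56, lowest on the same arrays 4 and 5. Array 1, the highest for Ifitm6 and Stfa2l1, had the Gapdh difference of 2.09, whose part was not tested. The differences from wild type were 1.15 ± 0.97 (SE) for Ifitm6, 1.09 ± 1.55 for Stfa2l1 and -0.01 ± 1.78 for Stfa3, each with an adjusted p of 1. No gene passed in this limma comparison (0%), against 387 at an unadjusted p under 0.05, and each other setting run also gave 0.

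CA10 leukemic against CA10 healthy spleen gave differences of 2.33 ± 1.28 for Stfa3, 2.13 ± 1.12 for Stfa2l1 and 1.92 ± 0.70 for Ifitm6. None passed (adjusted p = 0.307, 0.281 and 0.112), where 6.01% of all genes did, with 4.18% higher. For Ifitm6 the adjusted p was 0.0386 with only these groups in the model. Cst3 rose by 1.11 (adjusted p = 0.0155) and Ifitm2 by 1.18 (adjusted p = 0.0202).

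**Figure D4:**
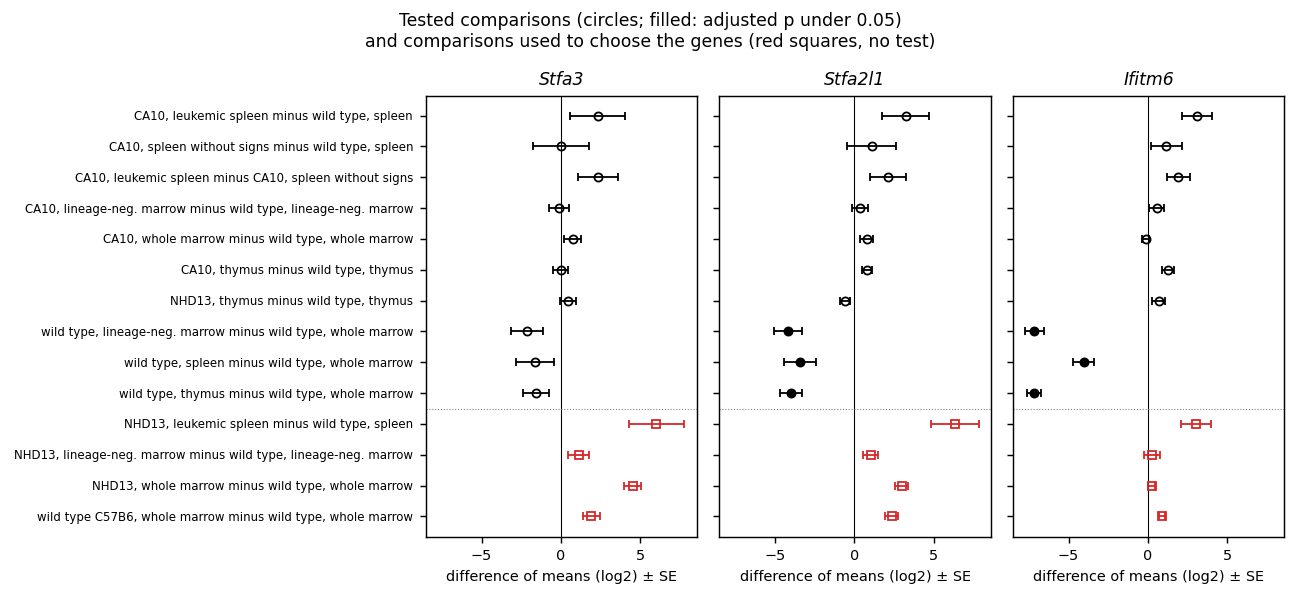
Difference of group means in log2 with its standard error for each gene, over the 10 tested comparisons (black circles, filled where the adjusted p was under 0.05) and the 4 comparisons on which the genes were chosen (red squares, no test). Stfa2l1 and Ifitm6 have filled circles in the 3 comparisons of wild-type tissues with wild-type whole marrow and in no CA10 or NHD13 thymus comparison.

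In CA10 whole marrow no member passed. Stfa3 was at 6.91, 6.64 and 7.98 and Stfa2l1 at 8.62, 8.65 and 9.64. Both overlapped the wild-type marrows, with differences of 0.75 ± 0.52 (SE, adjusted p = 0.439) and 0.77 ± 0.40 (adjusted p = 0.344). All 3 CA10 arrays are of the narrow array set, and against the 3 wild-type marrows of that set the differences were 1.15 and 1.07, with no overlap, as for 7.43% of all genes. Ifitm6, at 11.90, 12.03 and 12.61, differed from wild type by -0.14 ± 0.21 (adjusted p = 0.702), and by 0.14 within the narrow set. No gene passed in this comparison by limma (0%), where 2345 had an unadjusted p under 0.05; other settings gave up to 13 calls, apart from the replicate block.

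CA10 lineage-negative marrow and CA10 thymus had no called member. In lineage-negative marrow Stfa3 was at 4.16, 4.00 and 4.38 and Stfa2l1 at 4.03, 4.64 and 4.41, both overlapping wild type. Ifitm6 was at 5.07, 6.99 and 5.05, high on array 2 alone, where the late neutrophil mean was also the highest of its group, at 8.19. Without array 2 the Ifitm6 difference turned from 0.54 to -0.11. In thymus Ifitm6 was at 6.93, 5.50, 7.21 and 5.99 and its difference from wild type was 1.26 ± 0.39 (SE), with an adjusted p of 0.97. Stfa2l1, at 5.44, 5.24, 4.87 and 4.51, differed by 0.80 ± 0.30 (adjusted p = 0.97). No gene passed by limma in either comparison (0%), with 71 and 520 at an unadjusted p under 0.05, and other settings gave up to 2 in the first and 1 in the second.

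Across wild-type tissues, whole marrow was the site of highest signal for each gene. The choice of genes did not use this comparison, but the wild-type marrows and spleens were references in that choice. Ifitm6 was lower in lineage-negative marrow than in whole marrow by 7.16 ± 0.59 (SE, adjusted p = 4.88e-13). It was lower in thymus by 7.18 ± 0.46 (adjusted p = 4.28e-17) and in spleen by 4.05 ± 0.68 (adjusted p = 2.64e-05). No array of these tissues overlapped whole marrow, as for 13%, 8.57% and 12.7% of genes that lay wholly lower in the respective tissues. The share of genes passing was 26.3% in lineage-negative marrow, 49.8% in thymus and 10.7% in spleen, with 11.3%, 24.2% and 3.08% lower.

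Stfa2l1 was lower than in whole marrow by 4.19 ± 0.86 in lineage-negative marrow (adjusted p = 0.000188) and by 3.99 ± 0.68 in thymus (adjusted p = 4.73e-06). In spleen it was lower by 3.45 ± 1.00 (adjusted p = 0.0164). The gene was above the 40th percentile on none of the arrays of these 3 tissues and on all 6 whole marrows. Whole marrow was among the groups that carried it over the filter, so it had to be lower elsewhere; the calls support nothing, and the sizes are against signals at the floor. Stfa3 was above that level on none of the lineage-negative marrows, on 2 of 7 thymi and on 1 of 2 spleens. The spleen call of Stfa2l1 was lost when either wild-type spleen was left out. Its difference was -3.59 without wild-type spleen 1 and -3.32 without wild-type spleen 2. Stfa3 differed from whole marrow by -2.13 ± 1.03, -1.58 ± 0.81 and -1.62 ± 1.19 in lineage-negative marrow, thymus and spleen and passed in none (adjusted p = 0.126, 0.0988 and 0.434). The model of all 57 arrays takes its spread from every group, the CA10 leukemias included. With only the groups compared in the model, Stfa3 passed in each (adjusted p = 0.000631, 0.000343 and 0.0301). Whole marrow was among the groups that carried Stfa3 over the filter too, so these calls support nothing either.

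Late neutrophil genes fell in the same comparisons: 15 of 15 in lineage-negative marrow, 15 of 15 in thymus and 13 of 15 in spleen, with medians of -6.55, -6.70 and -3.70. Their part in the members' differences was not tested.

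Over the 14 groups the members were ordered differently. For both stefins the order began with NHD13 whole marrow, NHD13 leukemia, C57B6 whole marrow and CA10 whole marrow; the first pair overlapped, and C57B6 overlapped NHD13 leukemia. For Ifitm6 it began with C57B6 marrow at 13.20 ± 0.09 (SD, n = 3), NHD13 marrow at 12.56 ± 0.14, wild-type marrow at 12.32 ± 0.36 (n = 6) and CA10 marrow at 12.18 ± 0.38. Only the first of these neighbours was separated from the next, and the share of all genes separated in this way was not counted. CA10 leukemia at 11.34 ± 0.51 (n = 6) and NHD13 leukemia at 11.29 ± 1.81 followed. Groups at the floor were not ordered.

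Pearson's r over the 14 group means was 0.93 between the stefins, 0.92 between Stfa2l1 and Ifitm6, and 0.76 between Stfa3 and Ifitm6. Spearman's rank correlation gave 0.82, 0.85 and 0.72 in the same order. The group means share arrays, tissue makeup and normalization, and they include the NHD13 values that chose the genes. Likeness was ranked among tested genes without the members and without provisional names, such as Gm and Rik symbols. The genes most like Stfa3 over the same means were then Gpnmb, at r = 0.91, Apoc2, Cldn15, Clec4e and Ero1a. For Stfa2l1 they were Olr1 and Ero1a, both at 0.97, Gca, Cldn15 and Clec5a. For Ifitm6 they were Fpr2, a formyl peptide receptor of neutrophils, at 0.995, Igsf6, Lcn2, Clec4a2 and Ltf. Cldn15 and Ero1a were on the lists of both stefins, and none of the 5 for Ifitm6 was on either. Over the 57 single arrays r was 0.98 between Ifitm6 and Fpr2 and 0.44 between Stfa3 and Gpnmb.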

How the data were processed

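The deposited table held log2 signals that the authors made with RMA, per the submitters' processing notes, which give no version; RMA shrinks differences of dim probe sets. Per the labels' protocols, 100 ng of RNA was labelled for each array. The annotation build behind the signals is not given in the sources used here. Of 44943 probe sets, 34842 named 1 gene, and the brightest of these by its mean stood for each gene. The 15310 genes above the 40th percentile of their array on at least 3 arrays were tested with lmFit and eBayes of limma 3.58.1 (R 4.3.3). There was 1 model of group means per tissue, and 1 of all 57 arrays for wild-type tissues against each other, with Benjamini-Hochberg adjustment over all genes and a threshold of 0.05. Errors beside differences are the model's standard errors. The scripts were tested on simulated data.

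The members and gene lists were chosen with earlier results of these data known. Members were not tested on NHD13 marrow or leukemia, nor on C57B6 marrow. Named genes were the members, measured stefin, cystatin, Ifitm and cathepsin genes, fixed examples of the longer lists, and the 5 genes most like each member over the group means. Close copies lie beside the stefins, and how far each probe set reads a neighbouring copy was not tested. Same-numbered lineage-negative marrows deviated together (r of 0.20 to 0.70 for CA10 and 0.21 to 0.75 for NHD13 against wild type, with 2 of 3 arrays closest to their own number). The main model did not pair them, and only the replicate block did. This pairing comes from the values, as the labels do not say what a number marks. In each lineage-negative group array 3 is of the narrow array set, so number and array set coincide in part. No pair of arrays held identical values. Alternatives were a mean over a gene's probe sets, no filter, quantile normalization, eBayes with trend and robust settings, only the groups compared, the replicate block, the array set as a block or alone, and leaving out each array. The number of arrays limits the precision.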

Additional observations from a re-analysis of the deposited data

Results flagged for a closer look

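Ifitm6 on NHD13 leukemic spleen 3, at 7.96, stood apart from the other 5 arrays of its group, whose lowest was 11.25. It was the only such array among 18 sets of a gene and a group of 4 to 10 arrays that were checked, where chance marks about 1 in 20.

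Stfa2l1 had differences of opposite sign in NHD13 tissues, of which only the whole marrow one was between signals above the floor on all arrays. It was above wild type by 2.98 in whole marrow and by 1.03 in lineage-negative marrow, where every NHD13 array was above the wild-type mean, and it was 0.61 lower in thymus (-0.61), where every NHD13 array was below it. All thymus arrays of both genotypes and all wild-type lineage-negative marrows were under the 40th percentile of their array, and the lineage-negative difference was 0.40 without NHD13 array 1, so no direction is read from these tissues. The difference between tissues was not tested.

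Probe sets annotated to several stefin genes were outside the comparisons. The 2 below were picked because they were above wild type in NHD13 tissue. Any others are not described here, so their rise is no support for that of the members. Probe set 1435761_at, annotated to 2 stefin genes, averaged 12.74 in NHD13 leukemic spleen (10.89 to 13.55), against 4.31 and 6.70 in wild-type spleen. In NHD13 whole marrow it averaged 11.96 (10.43 to 13.19), where wild-type marrow averaged 9.28 (8.41 to 10.40) and C57B6 marrow 9.65 (9.36 to 10.03). Here all 3 NHD13 marrows were above all C57B6 marrows and all 6 wild-type marrows. Of all genes tested, 3.22% had that pattern, and 22.4% had every NHD13 leukemic spleen above wild-type spleen. On the same probe set CA10 whole marrow averaged 10.47 (9.76 to 11.60), and CA10 leukemic spleens ranged from 5.55 to 13.18. Probe set 1449909_at, also annotated to 2 stefin genes, averaged 6.32 in NHD13 leukemic spleen (5.15 to 8.37) against 4.10 and 4.30 in wild-type spleen. In NHD13 whole marrow it was not higher, with a mean of 4.14 against 4.58 in wild-type and 4.83 in C57B6 marrow.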

How the results depend on the processing

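Beside leaving out single arrays, 318 member values were recomputed: 297 counted as the same, 10 gained a call and 11 turned sign. In tested comparisons a value was the same if it kept its direction and side of the threshold. In those on which the genes were chosen it was the same if it kept its direction and shifted by less than the gene's residual SD. Every sign turn was of an uncalled or untested value, and the cause was not tested unless the setting shows it. Stfa3 turned to -0.34 in CA10 leukemia (replicate block), to 0.034 (quantile normalization) and 0.089 (replicate block) in healthy CA10 spleen, and to 0.18 (replicate block) and 0.085 (array set as a block, or the wide set alone) in CA10 thymus. Ifitm6 turned to 0.14 in CA10 marrow (array set as a block, or the narrow set alone) and to -0.049 in NHD13 marrow (replicate block, array set as a block, or the wide set alone). With only the groups compared in the model, which gives each comparison its own spread, Ifitm6 gained a call in CA10 leukemia against wild type (3.07) and against healthy CA10 spleen (1.92), and Stfa3 in wild-type lineage-negative marrow (-2.13), spleen (-1.62) and thymus (-1.58) against whole marrow. The replicate block gave calls to Ifitm6 in CA10 leukemia (3.34) and to Stfa3 in the same wild-type comparisons (-2.54, -2.27 and -1.56), and the narrow set alone to Stfa3 in lineage-negative marrow (-1.69).

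The count of genes called moved by over 1.5 times as follows, and the cause was not tested. With only the groups compared it was 2195 in CA10 leukemia, 2 in CA10 lineage-negative marrow, 0 in NHD13 lineage-negative marrow, 85 in NHD13 marrow and 1625 in C57B6 marrow, from 1232, 0, 9, 181 and 2946. With the replicate block it was 547 in CA10 leukemia and 0 in CA10 leukemia against healthy CA10 spleen. With that block it was also 2 in CA10 and 0 in NHD13 lineage-negative marrow, 8672 in CA10 marrow, 0 in NHD13 thymus, 3418 in wild-type spleen against marrow, 65 in NHD13 marrow and 1179 in C57B6 marrow. Arrays whose number has no partner add nothing to a difference under the block, so in CA10 marrow it set narrow against wide arrays. Outside lineage-negative marrow the numbers did not pair the arrays; in it the block changed no member call. Quantile normalization gave 9 in CA10 marrow, 232 in NHD13 thymus and 0 in NHD13 lineage-negative marrow. The mean of all probe sets gave 1, and the trend and robust settings 3, in CA10 marrow. The array set as a block gave 1 in CA10 marrow, 199 in NHD13 thymus, 37 in NHD13 lineage-negative marrow and 355 in NHD13 marrow. The narrow set alone gave 6 in CA10 marrow; the wide set alone gave 199 in NHD13 thymus, 21 in NHD13 lineage-negative marrow and 1777 in C57B6 marrow.

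Leaving out each array gave 0 to 1350 calls in CA10 leukemia, 127 to 1413 in CA10 leukemia against healthy spleen, 0 to 13 in CA10 marrow, 0 to 1 in CA10 thymus and 42 to 317 in NHD13 thymus. It gave 431 to 1906 in wild-type spleen against marrow, 2148 to 5020 in NHD13 leukemia, 0 to 31 in NHD13 lineage-negative marrow, 93 to 278 in NHD13 marrow and 1534 to 4271 in C57B6 marrow. Member differences ranged from -0.11 to 0.86 for Ifitm6 in CA10 lineage-negative marrow, negative without CA10 array 2. They ranged from -3.60 to -3.28 for Stfa2l1 in wild-type spleen, from -0.28 to 0.26 and -0.11 to 0.15 for Stfa3 in healthy CA10 spleen and CA10 thymus, and from -0.59 to 0.94 for Stfa3 in NHD13 thymus, negative without NHD13 thymus 1.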
